A study of Arabidopsis thaliana with 24 samples.

Results

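In roots supplied with iron, 105 of 17810 probe sets (0.59%) had a mean signal at least 0.75 lower, on the log2 scale, in the mutant rglg1 rglg2 than in the wild type Col. They are the members described here. They were chosen from the difference of 3 mutant and 3 Col root arrays on iron-sufficient medium (+Fe). Without array 3 of Col the same threshold chose 159 probe sets and without array 3 of the mutant 158, and without any 1 of the other 4 arrays it chose 90 to 107. Another 4 probe sets at or below the threshold, those for AT5G26270, AT1G30820, AGL19 and SWEET11, were left out by the rule. A single gene is named for 47 members, several genes for 1 and none for 57, so 44.8% of the members have a single gene, against 55.4% of all probe sets. The arrays that took no part in the choice were the root arrays on medium with an iron chelator (-Fe) and all leaf arrays. The tests below compare only these arrays. In the main fits for roots and between tissues, the +Fe root arrays still entered the estimate of the spread.

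The study measured total RNA on Affymetrix ATH1 arrays in 8 groups of 3 arrays each. These were rglg1 rglg2 -Fe, Col -Fe, rglg1 rglg2 +Fe and Col +Fe, in roots and in leaves. Plants of both genotypes had the Col ecotype, grew at 21 °C in continuous light, were moved at 10 days of age and were harvested 3 days later, at 13 days. The +Fe medium held 40 µM FeEDTA, and the -Fe medium held 100 µM of a triazine sulfonate of the ferrozine type, which binds iron. The labels give no alleles and no number of plants per array, and they call the arrays biological replicates. The spread between the 3 arrays of each group, pooled over all groups in a fit and in part across probe sets, is the error behind every p-value.

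RGLG1 and RGLG2 encode RING-domain ubiquitin ligases, which attach the small protein ubiquitin to other proteins. In Arabidopsis they are known for building a type of ubiquitin chain that often acts as a signal, and for roles in auxin transport, in root hair form and in drought responses. Roots that run short of iron change the pattern and shape of their hairs and switch on genes for iron uptake.

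Values are log2 signals centred on the median of the 24 arrays for each probe set, so differences between arrays can be read but no absolute level. Neither RGLG1 nor RGLG2 is named on any probe set, and their loss was not checked here. Replicate arrays correlated at 0.933 to 0.984 in roots and at 0.944 to 0.971 in Col leaves. In mutant leaves the pairs with array 3 correlated at 0.852 to 0.905, against 0.956 and 0.967 for arrays 1 and 2, so results in leaves are also given without array 3 of the mutant. The labelled tissues could be checked on few markers. The 7 measured genes of a photosynthesis list averaged 1.92 to 2.49 in the leaf arrays and -3.04 to -2.06 in the root arrays, and 4 measured root hair genes averaged -2.03 to -1.43 in leaf arrays and 1.38 to 1.99 in root arrays.

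On +Fe, the difference that chose the members ran from -3.65 to -0.75 with a median of -0.86, against a median of -0.01 over all probe sets. At or below -1 lay 34 members, and at or below -2 lay 3. The median member stood at -0.16, -0.08 and 0.05 in the mutant +Fe root arrays, against 0.99, 0.98 and 0.75 in the Col +Fe root arrays. All of these values follow from the choice and are given without a test. Just inside the threshold were the unnamed probe sets 246530_at (-0.76), 259839_at (-0.75) and 250474_at (-0.75). Just outside were AT1G24440 (-0.75), 246075_at (-0.74) and AT4G03140 (-0.74). On -Fe the 3 inside differed by -0.68, -0.87 and -0.53, and the 3 outside by -0.59, -0.52 and -0.48.

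**Figure D1:**
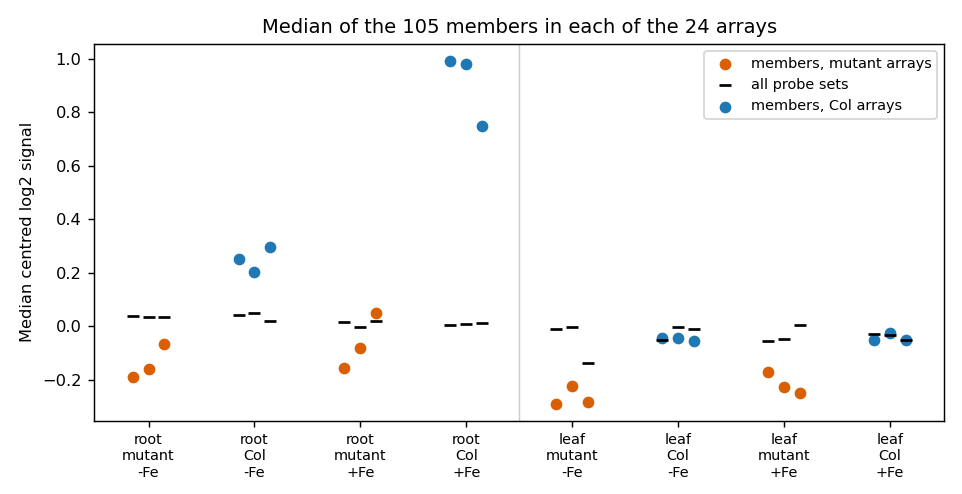
Median centred log2 signal of the 105 members in each array (points, orange for the mutant and blue for Col) and of all probe sets (dashes), by group on the horizontal axis. The 3 Col +Fe root arrays stand at 0.75 to 0.99, which the choice of members sets, and the 3 mutant -Fe root arrays (-0.19 to -0.07) lie below the 3 Col -Fe root arrays (0.20 to 0.30).

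In roots on -Fe, which the choice did not use, the members were again mostly lower in the mutant. With limma, 56 of 105 members (53.3%) were lower at an adjusted p under 0.05, where 2.08% of all probe sets were lower. No member was called higher, where 1.81% of all probe sets were, and 1 was higher at an unadjusted p under 0.05. The median difference of the members was -0.65, against -0.01 for all probe sets, and 100 of 105 differences were negative. All 3 mutant arrays lay below all 3 Col arrays for 78 members (74.3%), where 15.5% of all probe sets showed that separation, and the arrays overlapped for the other 27. The median member stood at -0.19, -0.16 and -0.07 in the mutant -Fe arrays and at 0.25, 0.20 and 0.30 in the Col -Fe arrays. Without array 1 of the mutant on -Fe the count of lower members was 37, where 0.685% of all probe sets were lower. It was 44 to 48 without any other of the 6 arrays, where 0.82% to 1.62% of all probe sets were. With the 6 -Fe arrays alone in the fit, the choosing arrays did not enter the spread either. The count was then 71, where 3.31% of all probe sets were lower. Of the probe sets chosen without Col +Fe array 3, 67 of 159 (42.1%) were lower on -Fe, and of those chosen without mutant +Fe array 3, 66 of 158 (41.8%). For the other 4 choices without 1 array the share was 52.2% to 63.3%.

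The difference was smaller on -Fe than on the arrays that chose the members for 77 of them and larger for 28. Members were chosen for low +Fe differences, so smaller ones on other arrays can follow from the choice alone. Whether iron changed the genotype difference was not tested. A difference of -0.75 or less was met again by 43 members, whereas 89 of all probe sets (0.5%) reached it on -Fe. Among the 5 members at -1.5 or less on +Fe, 4 were called lower on -Fe. The count was 24 of 29 from -1.5 to -1, 9 of 25 from -1 to -0.85 and 19 of 46 from -0.85 to -0.75. Across the 105 members the differences on the 2 media correlated at r = 0.72 (Spearman's rho 0.38), a description of probe sets measured in the same roots and not of independent points. A difference between 5′ and 3′ control probe sets, a measure of RNA quality over 6 pairs, averaged 0.21 ± 0.02 in mutant -Fe roots and 0.18 ± 0.10 in Col -Fe roots (SD, n = 3). On the choosing arrays it averaged 0.01 ± 0.14 in mutant +Fe roots and 0.20 ± 0.10 in Col +Fe roots, and its part in the choice of members was not tested.

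**Figure D2:**
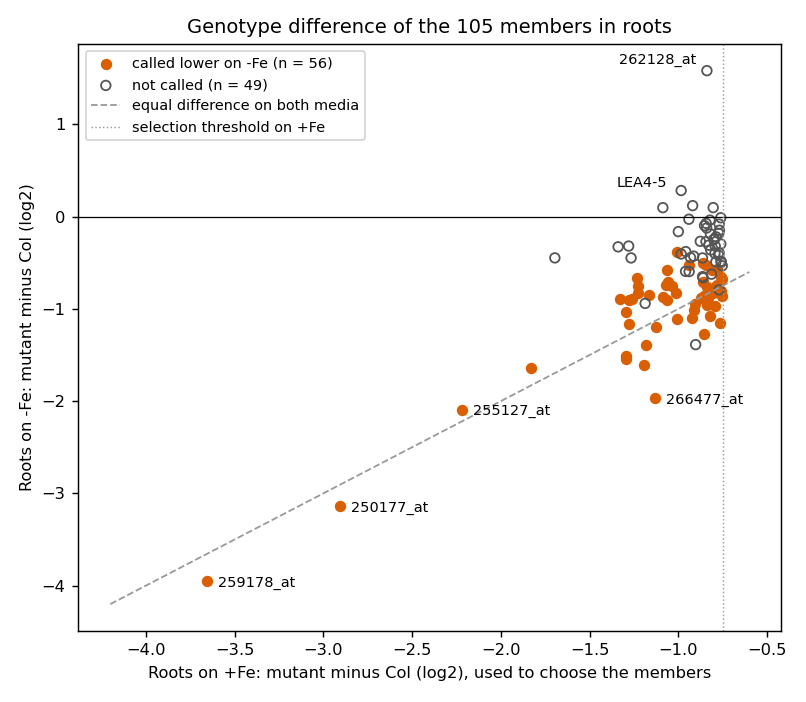
Each point is 1 of the 105 members, with the mutant minus Col difference in roots on +Fe (horizontal, used to choose the members) and on -Fe (vertical), both log2. Filled points are the 56 members called lower on -Fe; 259178_at and 250177_at lie farthest down, and 262128_at lies above 0.

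The members with a single gene were grouped by what their gene is known to encode, after their values had been seen. The largest group with a shared location was the cell wall, the pectin and cellulose network around plant cells that is loosened and remodelled as roots grow. Of its 8 members, 7 were lower in mutant roots on -Fe, where 53.3% of all members and 2.08% of all probe sets were, and the 8 differences ran from -0.90 to -0.57. Since the group was formed from members with values in view, nothing about the cell wall follows from this count. The same holds for the counts of the groups below. In a list of wall-loosening genes, 1 of 10 measured genes was lower, the member GH9B13 of this group, and 1 was higher. The list leaves out the gene EXPB2 of this group. GH9B13 (AT4G02290), of an endoglucanase family that acts on glucan chains, had 0.53, 0.56 and 0.70 in mutant -Fe roots, against 1.34, 1.63 and 1.49 in Col -Fe roots. The arrays did not overlap, and the difference was -0.89 ± 0.11 (limma SE, adjusted p = 0.000357). ATPMEPCRD (AT2G43050), of the pectin methylesterases, which strip methyl groups from pectin, had 0.72, 0.75 and 0.92 in mutant roots, against 1.85, 1.43 and 1.74 in Col roots, a difference of -0.88 ± 0.12 (adjusted p = 0.000809). AT2G01610 belongs to the proteins that inhibit invertases or pectin methylesterases. It had -0.03, 0.00 and 0.28 in mutant roots, against 0.88, 1.07 and 0.99 in Col roots, and differed by -0.90 ± 0.11 (adjusted p = 0.00034).

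AT5G13140, of the Ole e 1 family of wall proteins, had -2.78, -2.49 and -2.45 in mutant -Fe roots, against -1.79, -1.79 and -1.45 in Col -Fe roots. Its difference of -0.90 ± 0.17 (adjusted p = 0.00833) lost its call without array 1 of the mutant on -Fe (-0.79, adjusted p = 0.0526) and without array 3 of every group (-0.85, adjusted p = 0.0652). AT2G41810, of the DUF642 wall proteins, was lower, at -0.83 ± 0.20 (adjusted p = 0.033). EXPB2 (AT1G65680), a beta-expansin of the proteins that let walls extend, was lower, at -0.75 ± 0.16 (adjusted p = 0.0169). AT1G48100, of the pectin-cutting polygalacturonase family, was lower, at -0.57 ± 0.09 (adjusted p = 0.0025). AT1G10640, of the same family, had -0.65, -0.67 and -0.43 in mutant roots and 0.11, 0.02 and -0.01 in Col roots. These arrays did not overlap either, but its difference of -0.62 ± 0.17 missed the threshold (adjusted p = 0.0535).

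Of 10 members that encode metabolic enzymes, 5 were lower in mutant roots on -Fe, where 53.3% of all members and 2.08% of all probe sets were. ATGSTF13 (AT3G62760), a glutathione transferase of the phi class, which couples glutathione to small molecules, had 0.84, 1.11 and 0.90 in mutant roots, against 2.37, 2.33 and 2.30 in Col roots. That is 2.62-fold lower, a log2 difference of -1.39 ± 0.10 (adjusted p = 2.82e-06), with Col arrays that differed by less than 0.1. AT2G38600, of an acid phosphatase family, had 0.42, 0.47 and 0.67 in mutant roots, against 1.56, 2.56 and 2.06 in Col roots, a difference of -1.54 ± 0.21 (adjusted p = 0.00105). AT1G19540, of the isoflavone reductase-like family, was lower, at -0.75 ± 0.12 (adjusted p = 0.00271). AT5G50130, a short-chain dehydrogenase family gene, was lower, at -0.66 ± 0.13 (adjusted p = 0.0102), and IVD (AT3G45300), which acts in leucine breakdown, at -0.50 ± 0.12 (adjusted p = 0.0296).

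The other 5 enzymes were not called in roots on -Fe. AT5G62420, of the aldo-keto reductases, differed by -0.94 ± 0.26 (adjusted p = 0.0592), with 1 of its mutant arrays at 2.52 among Col values of 2.42, 3.04 and 2.72. AT1G52820, of the oxygenases that use 2-oxoglutarate, differed by -0.45 ± 0.24 (adjusted p = 0.356). AT2G34810, of the berberine bridge enzyme-like family, differed by -0.40 ± 0.17, and DFR (AT5G42800), a step of anthocyanin synthesis, by -0.24 ± 0.21. AT5G04120, of the phosphoglycerate mutase family, differed by -0.04 ± 0.22, beside -0.82 on the +Fe arrays that chose it.

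Of 3 proteases, scpl31 and AT1G09750 were lower in mutant roots on -Fe, where 53.3% of all members and 2.08% of all probe sets were. scpl31 (AT1G11080), a serine carboxypeptidase-like gene, had -0.20, -0.38 and -0.11 in mutant roots, against 1.09, 1.61 and 1.15 in Col roots, a difference of -1.51 ± 0.23 (adjusted p = 0.0025). AT1G09750, an aspartyl protease family gene, was lower, at -0.71 ± 0.14 (adjusted p = 0.00915), whereas AT5G37540 of the same family differed by -0.44 ± 0.15 (adjusted p = 0.137). Of 2 genes of lipid transfer families, AT1G62510 had -1.98, -2.15 and -2.27 in mutant roots, against -0.69, -1.25 and -0.65 in Col roots. It was lower, at -1.27 ± 0.14 (adjusted p = 0.000203), a larger difference than the -0.85 on +Fe. AT3G22620, the other one, differed by -0.49 ± 0.15 (adjusted p = 0.0986). SP1L2 (AT1G69230), of the SPIRAL1-like proteins that bind microtubules, was lower, at -0.79 ± 0.12 (adjusted p = 0.00199).

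Both members with a RING finger, the domain by which RGLG1 and RGLG2 also act, were measured in roots and leaves. AT1G49200 had -1.45, -1.69 and -1.35 in mutant -Fe roots, against -0.61, -0.60 and -0.35 in Col -Fe roots, a difference of -0.97 ± 0.12 (adjusted p = 0.000452). AT5G55970 had 0.42, 0.49 and 0.61 in mutant roots and 0.84, 0.96 and 0.89 in Col roots. Its arrays did not overlap, and its difference of -0.39 ± 0.15 was not called (adjusted p = 0.181). Of 3 transporters, AT1G59740 (NPF4.3, of the nitrate and peptide transporter family) was lower in roots, at -0.83 ± 0.11 (adjusted p = 0.00058). AT2G26690 (NPF6.2) of the same family differed by -0.31 ± 0.12, and OCT1 (AT1G73220), an organic cation and carnitine transporter, by -0.32 ± 0.18.

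Of 9 single-gene members to which no role was assigned, 5 were lower in mutant roots on -Fe (53.3% of all members, 2.08% of all probe sets). AT5G14330 had 0.33, -0.03 and 0.12 in mutant roots, against 2.22, 1.90 and 1.13 in Col roots, and was 3.05-fold lower (log2 -1.61 ± 0.31, adjusted p = 0.00942). AT1G19530 had 0.47, 0.40 and 1.10 in mutant roots, against 1.43, 1.63 and 1.61 in Col roots, a difference of -0.90 ± 0.15 (adjusted p = 0.00328). AT1G19530 lies next to AT1G19540, which was also lower, in the gene order of the TAIR10.1 annotation. AT1G33055 (-0.83 ± 0.15, adjusted p = 0.00681) and AT3G07310 (-0.76 ± 0.13, adjusted p = 0.00515) were lower as well. AT2G28780 (-0.76 ± 0.20) was lower too, just under the threshold (adjusted p = 0.0478). AT4G09890 differed by -0.79 ± 0.21 and missed the threshold (adjusted p = 0.0547), and AT3G20300 differed by -0.32 ± 0.09.

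Another 6 single-gene members fell in none of these groups. In mutant roots on -Fe 2 of them were lower (53.3% of all members, 2.08% of all probe sets). AT3G15450, of the aluminium-induced protein family, had -1.82, -1.46 and -1.10 in mutant roots, against -0.80, -0.04 and 0.04 in Col roots. Its difference of -1.19 ± 0.24 (adjusted p = 0.0133) lost its call in 4 of 15 alternatives, with an adjusted p of up to 0.0766 and a difference of -1.01 without array 1 of the mutant on -Fe. AT5G67430, of an acetyltransferase family, was lower, at -0.58 ± 0.12 (adjusted p = 0.016). The protein kinase family gene AT4G01330 differed by -0.43 ± 0.13 in roots and was lower in mutant leaves on -Fe, at -0.76 ± 0.18 (adjusted p = 0.0172). AT4G01390, of the TRAF-like family, differed by -0.25 ± 0.19, and AT1G64380, of the ERF transcription factors, by -0.16 ± 0.17.

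**Figure D3:**
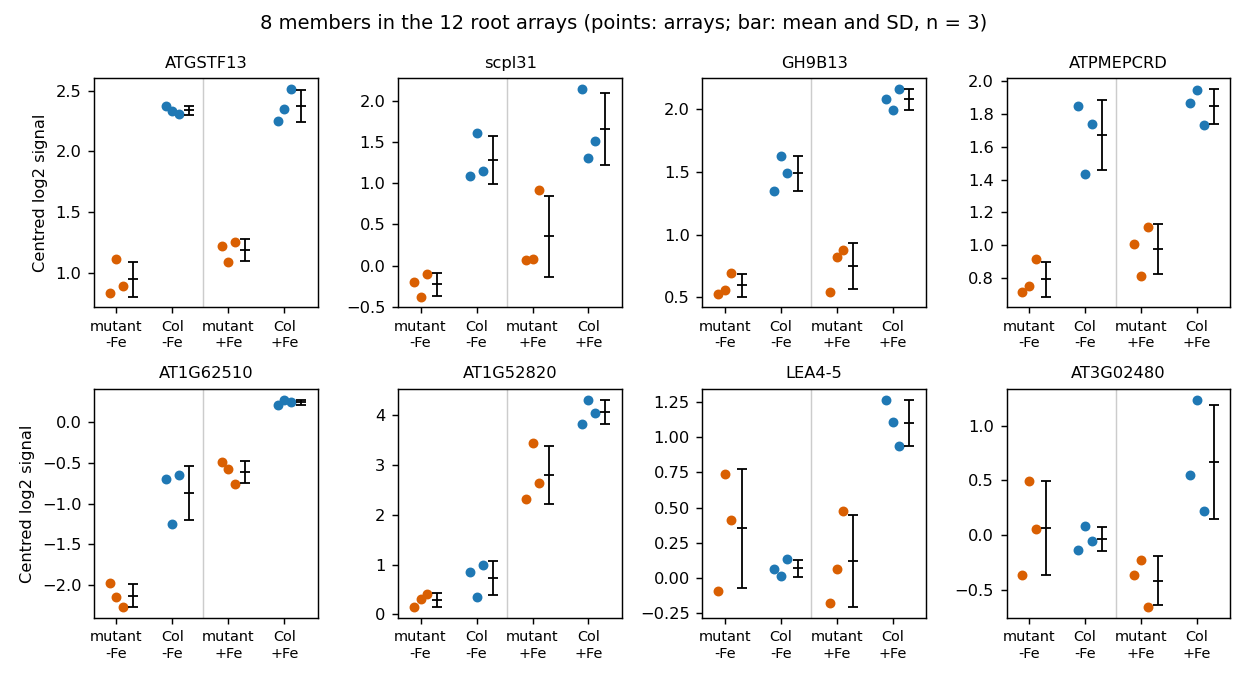
Centred log2 signal of 8 members in the 12 root arrays, with the mutant left of Col on each medium; points are arrays and bars show mean and SD (n = 3). ATGSTF13, scpl31, GH9B13, ATPMEPCRD and AT1G62510 were lower in the mutant on -Fe with no overlap between genotypes, while AT1G52820, LEA4-5 and AT3G02480 were not called there.

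Members of the cold and dehydration group differed among themselves on -Fe. COR27 (AT5G42900), a cold-regulated gene, was lower, at -0.38 ± 0.10 (adjusted p = 0.044), beside -1.01 on the +Fe arrays that chose it. LEA4-5 (AT5G06760), a late embryogenesis abundant gene of the proteins that accumulate in drying tissue, had -0.10, 0.74 and 0.41 in mutant -Fe roots, against 0.06, 0.01 and 0.13 in Col -Fe roots. AT3G02480 of the same broad family had -0.37, 0.49 and 0.06 in mutant roots, against -0.14, 0.08 and -0.06 in Col roots. Genotypes overlapped for both, with differences of 0.28 ± 0.19 (adjusted p = 0.48) and 0.10 ± 0.23 (adjusted p = 0.876). The least negative single-gene members also held AT1G49450, of the WD40 repeat family (0.12 ± 0.23), AT3G01175 (0.10 ± 0.15) and AT5G07330 (-0.01 ± 0.20). In all, 17 members lay within 0.25 of 0 on -Fe.

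For the members named for their +Fe difference, OCT1 (-1.28) and AT1G52820 (-1.27) stood beside GH9B13 (-1.33), scpl31 (-1.30), AT2G38600 (-1.30) and AT1G19530 (-1.28). The first pair was not called on -Fe, and the other four were. AT1G52820 had 0.14, 0.30 and 0.41 in mutant -Fe roots and 0.85, 0.35 and 0.997 in Col -Fe roots, with a mutant mean of 0.28 ± 0.14 and a Col mean of 0.73 ± 0.34 (SD, n = 3 each). On +Fe it had 2.31, 3.45 and 2.63 in mutant roots and 3.83, 4.32 and 4.05 in Col roots. Its signal was thus lower on -Fe than on +Fe by more than its genotype difference on either medium, with -2.51 in the mutant and -3.33 in Col.

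The most negative differences of all belonged to probe sets without a named gene. 259178_at had -1.83, -1.76 and -1.53 in mutant -Fe roots, against 2.28, 2.19 and 2.25 in Col -Fe roots, and was 15.4-fold lower (log2 -3.95 ± 0.15, adjusted p = 4.75e-09). 250177_at had -2.34, -2.23 and -2.79 in mutant roots, against 0.61, 0.63 and 0.82 in Col roots, and was 8.82-fold lower (log2 -3.14 ± 0.16, adjusted p = 8.35e-08). 255127_at had -0.49, -0.80 and -0.09 in mutant roots, against 1.29, 1.77 and 1.83 in Col roots, and was 4.27-fold lower (log2 -2.09 ± 0.24, adjusted p = 0.000291). Whether any of them measures RGLG1 or RGLG2, the mutated genes, was not tested. At the other end, 262128_at, singled out after its values were seen, had 0.24, 2.92 and 1.61 in mutant -Fe roots, against -0.15, -0.12 and 0.30 in Col -Fe roots. Its arrays overlapped, and its difference of 1.58 ± 0.54 was not called (adjusted p = 0.133).

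In leaves, a smaller share of the members was lower in the mutant. On -Fe 27 members (25.7%) were lower in mutant leaves, where 9.77% of all probe sets were, and 1 was higher, where 6.18% were. On +Fe 20 members (19.0%) were lower, where 7.18% of all probe sets were, and 2 were higher, where 7.18% were. The median difference of the members was -0.25 on each medium, against -0.04 on -Fe and -0.01 on +Fe for all probe sets. Without array 3 of the mutant leaves, 40 members were lower on -Fe (16.1% of all probe sets) and 40 on +Fe (16.7% of all probe sets). The members higher then numbered 9 on -Fe (16.2% of all probe sets) and 8 on +Fe (15.1% of all probe sets). Leaving out 1 of the other arrays compared gave 14 to 17 lower members on -Fe and 9 to 13 on +Fe, and each of these 5 arrays on either medium moved the count by over 1.5 times. On -Fe the count was 14, 17 and 16 without Col arrays 1, 2 and 3, and 16 and 17 without mutant arrays 1 and 2. On +Fe it was 9, 10 and 13 without Col arrays 1, 2 and 3, and 12 and 9 without mutant arrays 1 and 2. The share of all probe sets called lower moved too, to 3.83% to 6.70% on -Fe and 2.34% to 4.15% on +Fe. The 5′ and 3′ control difference averaged -0.13 in mutant leaves and 0.05 in Col leaves on -Fe, and 0.01 in mutant leaves and 0.06 in Col leaves on +Fe, and its part in these counts was not tested.

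Both leaf comparisons and the root comparison on -Fe use different arrays. Of the 56 members lower in mutant roots on -Fe, 16 were lower in mutant leaves on -Fe. That is 28.6% of the root members, beside 25.7% of all members, and 59.3% of the leaf members, beside 53.3% of all members. With leaves on +Fe the shared number was 15. That is 26.8% of the root members, beside 19.0% of all members, and 75.0% of the leaf members, beside 53.3%. The overlaps were not counted over all probe sets. In all 3 comparisons 10 members were lower. These were AT1G49200, AT2G01610 and AT3G07310 and the unnamed 245947_at, 248104_at, 249862_at, 250177_at, 253657_at, 259178_at and 260287_at.

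**Figure D4:**
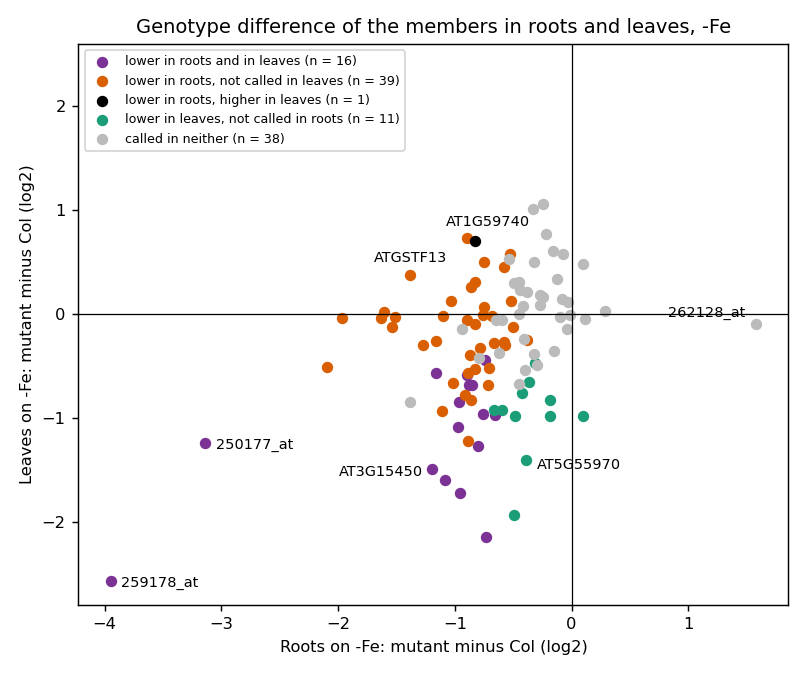
Mutant minus Col difference on -Fe in roots (horizontal) and in leaves (vertical), both log2, for each of the 105 members, coloured by the calls in each tissue. The 16 members lower in both tissues lie at the lower left with 259178_at and 250177_at, and AT1G59740 was lower in roots and higher in leaves.

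Among named genes in leaves on +Fe, GH9B13 differed most. It had -3.46, -3.01 and -1.85 in mutant leaves, against -0.93, -1.20 and -0.53 in Col leaves, with no overlap and a difference of -1.89 ± 0.39 (adjusted p = 0.00957). On -Fe it differed by -1.22 ± 0.39 and was just short of the threshold (adjusted p = 0.0502). The RING finger gene AT1G49200 was lower, at -0.91 ± 0.18 (adjusted p = 0.0084), with 0.52, 0.42 and 0.93 in mutant leaves and 1.23, 1.65 and 1.72 in Col leaves. AT5G50130 was lower, at -0.69 ± 0.14, SP1L2 at -0.67 ± 0.15 and AT2G01610 at -0.57 ± 0.18. The last had an adjusted p of 0.0499 and lost its call in 6 of 15 alternatives, with an adjusted p of up to 0.182. SP1L2 lost its call in 2 and AT5G50130 in 1 of 15, with an adjusted p of up to 0.0711 and 0.0535.

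On +Fe, 2 members were higher in mutant leaves. AT3G01175 had 0.61, 0.01 and 0.15 in mutant leaves, against -0.72, -0.88 and -0.94 in Col leaves, a difference of 1.10 ± 0.17 (adjusted p = 0.00251). AT5G37540, the aspartyl protease family gene, had -0.35, -0.75 and -0.65 in mutant leaves, against -1.84, -1.94 and -0.91 in Col leaves. Its difference of 0.98 ± 0.28 (adjusted p = 0.0393) lost its call in 5 of 15 alternatives, with an adjusted p of up to 0.14.

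On -Fe, AT3G15450 had -1.03, -0.27 and 0.49 in mutant leaves, against 1.33, 0.95 and 1.38 in Col leaves, a difference of -1.49 ± 0.29 (adjusted p = 0.00706). AT5G55970, the RING finger gene not called in roots on -Fe, had -1.48, -1.21 and -1.81 in mutant leaves, against 0.02, -0.03 and -0.27 in Col leaves. It was lower, at -1.41 ± 0.16 (adjusted p = 0.000483) on -Fe and at -0.54 ± 0.16 (adjusted p = 0.0399) on +Fe. AT1G49200 was lower, at -1.08 ± 0.18 (adjusted p = 0.00352), so both RING finger members were lower in mutant leaves on both media. AT3G07310 was lower, at -0.96 ± 0.11 on -Fe and at -0.51 ± 0.11 on +Fe. AT3G02480 had 2.12, 2.33 and 0.90 in mutant leaves, against 2.45, 2.94 and 2.90 in Col leaves. Its difference of -0.98 ± 0.29 (adjusted p = 0.0389) lost its call in 6 of 15 alternatives, and it was -0.47 (adjusted p = 0.0662) without array 3 of every group.

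AT1G59740 was the 1 member called higher in mutant leaves on -Fe with all arrays in the fit. Without array 3 of the mutant leaves on -Fe 8 members were called higher, where 13.9% of all probe sets were. Without array 3 of every group 14 members were, where 16.1% of all probe sets were. AT1G59740 had 0.33, 0.48 and 0.72 in mutant leaves, against -0.37, -0.06 and -0.16 in Col leaves, a difference of 0.70 ± 0.15 (adjusted p = 0.0106). In roots on the same medium it had -0.62, -0.65 and -0.54 in the mutant, against 0.25, 0.20 and 0.21 in Col. Genotypes did not overlap in either tissue, and the direction was opposite. The difference between tissues itself, leaf minus root, was 1.53 ± 0.18 (limma, adjusted p = 4.04e-05).

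Tested over all 24 arrays on -Fe, the genotype difference depended on tissue for 21 members. It was more positive in leaves for 18 (17.1%), where 4.58% of all probe sets were, and more negative in leaves for 3 (2.86%), where 6.43% were. The members were chosen as low in mutant roots, though on other arrays, so the direction of this count is no independent result. The median over members was 0.37, against -0.03 over all probe sets. Without array 3 of the mutant leaves on both media the numbers were 31 members (13.3% of all probe sets) and 8 members (11.6%). Without array 3 of the mutant leaves on -Fe alone 34 members were called. Of these, 28 were more positive (11.6% of all probe sets) and 6 more negative (9.35%). Without array 2 of the mutant roots on -Fe 12 were called, 11 more positive (2.70% of all probe sets) and 1 more negative (3.98%). ATGSTF13, lower in roots, had -0.99, -1.41 and -0.84 in mutant leaves, against -1.70, -1.28 and -1.39 in Col leaves, and its tissue difference was 1.77 ± 0.20 (adjusted p = 3.33e-05).

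In Col, some members had the higher signal in leaves and others in roots. On -Fe, 53 members (50.5%) were lower in Col leaves than in Col roots, where 38.3% of all probe sets were. Another 40 (38.1%) were higher in leaves, where 31.2% of all probe sets were, and differences ran from -6.43 to 6.57. The lipid transfer gene AT3G22620 had -3.72, -3.12 and -2.50 in Col leaves, against 3.50, 3.21 and 3.26 in Col roots, a difference of -6.43 ± 0.21 (adjusted p = 3.94e-17). AT5G04120 (-3.98), AT2G28780 (-3.92), ATGSTF13 (-3.80) and AT5G62420 (-3.77) followed among the genes lower in leaves. AT5G13140 had 1.15, 1.64 and 1.22 in Col leaves, against -1.79, -1.79 and -1.45 in Col roots, a difference of 3.01 ± 0.20 (adjusted p = 1.2e-11). AT3G02480 (2.80), COR27 (2.31), AT1G49200 (2.13) and AT1G09750 (2.07) were also higher in leaves. In whole organs, fewer cells of a type and less RNA per cell cannot be told apart.

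**Figure D5:**
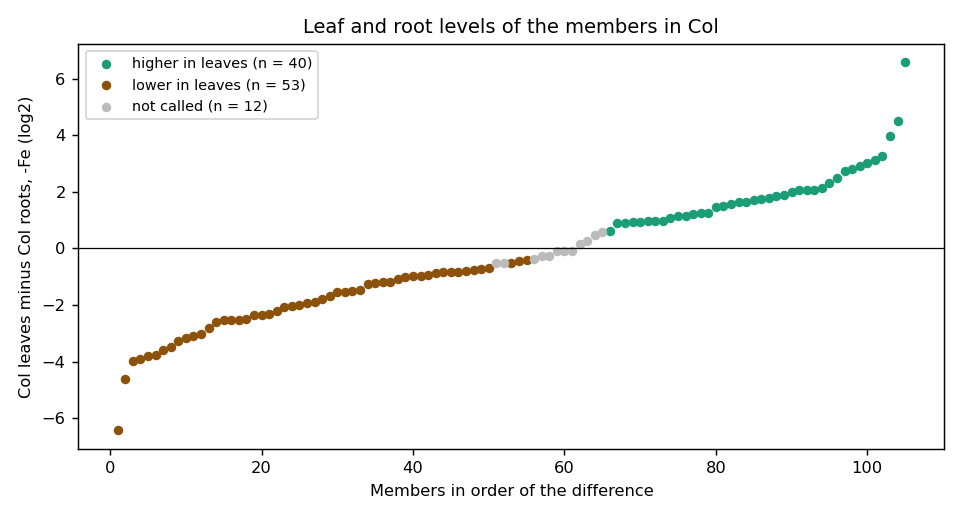
Difference between Col leaves and Col roots on -Fe (log2, vertical) for the 105 members, in rising order. The 40 members higher in leaves (green) and the 53 lower in leaves (brown) lie on either side of 0.

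Few members responded to iron in leaves. In Col leaves (-Fe minus +Fe) 2 were higher, where 0.511% of all probe sets were, and 1 was lower, where 0.522% were. In mutant leaves 1 was higher, where 0.157% of all probe sets were, and 1 was lower, where 0.27% were. AT3G02480 was higher on -Fe in both genotypes, with a response of 2.96 ± 0.29 (adjusted p = 0.000201) in mutant leaves and 3.57 ± 0.29 (adjusted p = 2.38e-05) in Col leaves. It had 2.12, 2.33 and 0.90 in mutant -Fe leaves and -1.20, -1.02 and -1.30 in mutant +Fe leaves. The unnamed 263549_at was lower on -Fe in both, at -1.49 ± 0.24 in mutant leaves and -2.25 ± 0.24 in Col leaves, and 260221_at was higher in Col leaves by 0.82 ± 0.17 (adjusted p = 0.0485). Without array 3 of the mutant leaves, which shares the fit, 10 members were called in Col leaves and 3 in mutant leaves. Of all probe sets, 1.58% were then lower and 1.59% higher in Col leaves, and 0.382% and 0.241% in mutant leaves. Leaving out array 3 of the mutant on -Fe alone gave 4 calls in mutant leaves, and leaving out any other of the 6 mutant leaf arrays gave 1, except array 2 on +Fe, which gave 2.

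In roots, both iron responses use the +Fe arrays that chose the members, so they are given without a test. The median response of the members was -0.16 in mutant roots and -0.42 in Col roots, while the medians over all probe sets were -0.00 and 0.01. In mutant roots 76 members were below 0, and in Col roots 96 were. The Col response contains the Col +Fe values that were high by choice. Among the genes described above, GH9B13 had a response of -0.15 in mutant roots and -0.59 in Col roots, ATPMEPCRD of -0.18 in mutant roots and -0.17 in Col roots, and AT3G01175 of -0.39 in mutant roots and -1.29 in Col roots.

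Few other genes of the pathways around the members were matched. Only probe sets with 1 named gene (55.4% of all in the deposited table) were searched. Genes are called measured below where such a probe set carried them. Whether the others lie on unnamed probe sets or are absent from the deposited table was not tested. In the list of wall-loosening genes, 10 of 18 were measured, and in mutant roots on -Fe 1 was lower, the member GH9B13, and 1 was higher, the xyloglucan endotransglucosylase gene XTH20, at 0.69 ± 0.12 (adjusted p = 0.0045). The median of that list was -0.11. Of 22 root hair genes 4 were measured, and limma called 0 of them in mutant roots on -Fe, with 1 at an unadjusted p under 0.05 and a median of 0.25. Of 26 genes of auxin response and transport 6 were measured, and 0 were called, with 1 at an unadjusted p under 0.05 and a median of -0.04. Epidermal patterning and endodermis had 1 measured gene each, at -0.04 and -0.41, and neither was called, though the endodermis gene had an unadjusted p under 0.05. Of the xylem and nitrate lists, 0 genes were matched to a probe set tested here. COR15A (-0.42 ± 0.11, adjusted p = 0.0474) was the 1 gene called lower among 3 measured for responses to abscisic acid and drying. In the iron list BHLH101 was lower (-0.82 ± 0.18) and S8H higher (0.71 ± 0.16), and the other measured probe sets of 11 were not called. Of the photosynthesis list, limma called 0 of 7 measured genes in roots on -Fe, 0 had an unadjusted p under 0.05, and the median was 0.03. RGLG5, of the family of the mutated genes, had 0.20 ± 0.09 in mutant over Col roots on -Fe (adjusted p = 0.256) and was higher in mutant leaves on +Fe, by 0.75 ± 0.20 (adjusted p = 0.027). None of the genes on these lists besides GH9B13 is a member.

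The 47 single-gene members lay on all 5 chromosomes, with 16, 7, 8, 4 and 12 on chromosomes 1 to 5. In percent that is 34.0, 14.9, 17.0, 8.51 and 25.5, beside 26.0, 14.7, 20.3, 14.6 and 23.7 of all single-gene probe sets. In the TAIR10.1 gene order, 3 of 47 (6.38%) lay within 100 genes of RGLG1 or RGLG2, beside 149 of 9686 (1.54%) of all placed single-gene probe sets. These were AT5G14330 at 10 genes, AT3G01175 at 67 and AT3G02480 at 89, and the window was chosen after the values were seen.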

How the data were processed

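Total RNA was measured on 24 Affymetrix ATH1 arrays. The authors deposited log2 signals per probe set, made with RMA per the submitters' processing notes, without a version. The base of the log was taken from RMA. Each of the probe sets has a median of 0 over the arrays in the deposited table, so absolute levels and a filter on dim probe sets were not usable. Of 17854 probe sets, 44 controls were left out. Gene names came from the platform's annotation and, for updated symbols and gene order, from TAIR10.1.

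Members are the probe sets with a mean +Fe root difference, mutant minus Col, of -0.75 or less. They, the gene lists and the naming rule were chosen with earlier results of these data known. Named genes were the 12 most negative called single-gene members in roots on -Fe, the 6 most negative on +Fe, up to 5 per direction for each other comparison, 3 unnamed ones, list members, those around the threshold and the 5 least negative. Genes of the role groups were added after their values were seen.

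With R 4.3.3 and limma 3.58.1 (lmFit, then eBayes), a mean per group was fitted on the 12 arrays of a tissue (8 residual degrees of freedom) or, between tissues, on all 24 (16). P-values were two-sided and adjusted by Benjamini-Hochberg over 17810 probe sets, and calls were made at 0.05. Errors beside differences are moderated standard errors, and those beside means are the SD of 3 arrays. The fits were tested on simulated data. Alternatives were quantile normalization, only the arrays compared, array weights, robust eBayes, a replicate block, arrays left out, a stricter threshold, members chosen without 1 array, a minimum difference and only single-gene probe sets. The deviations of equally numbered arrays correlated over 0.1 in all 3 pairs of mutant leaves on -Fe and +Fe (0.391 to 0.599), so the numbers were taken as pairs for that comparison, from the data alone. Fitted on its 6 arrays with the replicate number as a block, added after seeing the data, it had 2 calls. Without the block it had 1 call on the same 6 arrays and 2 on all 12 leaf arrays. The differences, errors and p-values given above for iron in mutant leaves come from the fit on all 12 without the block. In the other comparisons not every pair was over 0.1. Pairs of Col leaves on -Fe and +Fe correlated at 0.339, 0.0455 and 0.195, so 5 of 6 pairs within a genotype in leaves were over 0.1, the mutant pairs included. In roots 2 of 6 pairs within a genotype were, and between genotypes 1 of 12 in each tissue. The number of arrays limits the precision.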

Additional observations from a re-analysis of the deposited data

Results flagged for a closer look

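For 21 members the genotype difference on -Fe was not the same in leaves and in roots, tested as the leaf difference minus the root difference with limma over 24 arrays. Of these, 8 are given here. The 5 most positive were 266477_at (1.93 ± 0.18, adjusted p = 2.25e-06), 250177_at (1.90 ± 0.22, adjusted p = 4.02e-05), ATGSTF13 (1.77), AT1G19530 (1.63 ± 0.46, adjusted p = 0.0281) and AT5G14330 (1.62 ± 0.44, adjusted p = 0.0239). 266477_at had 0.13, 0.13 and 0.26 in mutant roots, against 1.80, 2.43 and 2.20 in Col roots, and -0.45, -0.41 and -0.39 in mutant leaves, against -0.32, -0.21 and -0.61 in Col leaves. 250177_at was lower in both tissues, at -3.14 in roots and -1.24 in leaves. The 3 called in the other direction were 260914_at (-1.44 ± 0.42, adjusted p = 0.0317), AT5G55970 (-1.02 ± 0.23, adjusted p = 0.00807) and 248163_at (-0.64 ± 0.19, adjusted p = 0.0344). 260914_at had -2.30, -2.28 and -1.03 in mutant leaves, against 0.18, -0.05 and 0.06 in Col leaves, and -0.19, -0.11 and 0.17 in mutant roots, against 0.10, 0.64 and 0.60 in Col roots. Calls were lost in 10 of 22 alternatives for AT1G19530, 9 of 21 for 260914_at, 8 of 21 for 248163_at and 5 of 22 for AT5G14330.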

How the results depend on the processing

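The count of members lower in mutant roots on -Fe (56) was 54 to 72 under quantile normalization, only the arrays compared, array weights, robust eBayes and a minimum difference of 0.5, 37 to 52 with -Fe arrays or array 3 of every group left out, 62 without mutant +Fe array 3 in the fit, and 47 to 67 of 90 to 159 members chosen without 1 array. Of all probe sets, 5.91% were lower with array weights and 3.31% with only the arrays compared. A threshold of -1 gave 28 of 34 members, and adjusting over single-gene probe sets gave 25 of 47. With the replicate number as a block, the counts were 58 in roots on -Fe, 21 and 31 in leaves on +Fe and -Fe, 3 and 2 for iron in Col and mutant leaves, 93 between Col leaves and roots and 24 for tissue dependence. In leaves on +Fe (20), array weights gave 46, a threshold of -1 gave 7, single-gene probe sets 7, members chosen without 1 array 13 to 27, arrays left out 9 to 33 and no mutant leaf arrays 3 gave 40. In leaves on -Fe (27), these were 43, 7, 8, 18 to 47, 14 to 38 and 40, and only the arrays compared gave 18. The 33 on +Fe and 38 on -Fe came without array 3 of every group, where 13.9% and 14.3% of all probe sets were lower. Array weights gave 9 higher members on each medium, against 1 on -Fe and 2 on +Fe. With array weights, 3819 of all 17810 probe sets were called higher in leaves on +Fe and 3214 on -Fe. These are larger shares than among the 105 members. The probe sets called lower with array weights numbered 4429 on +Fe and 3414 on -Fe, smaller shares than among the members. For iron in Col leaves (3), only the arrays compared gave 7, array weights 7, single-gene probe sets 1, arrays left out 2 to 8 and no mutant leaf arrays 3 gave 10. Of all probe sets, 2.16% were then lower and 2.14% higher with array weights, and 0.893% and 0.898% with only the arrays compared. For iron in mutant leaves (2), only the arrays compared gave 1, array weights 21, a threshold of -1 gave 1, single-gene probe sets 1 and arrays left out 1 to 4. With array weights 16 members were lower on -Fe (4.62% of all probe sets) and 5 higher (4.05%). Between Col leaves and roots (93), a threshold of -1 gave 31, single-gene probe sets 41 and members chosen without 1 array 80 to 139. For tissue dependence (21), array weights gave 46, single-gene probe sets 9, arrays left out 12 to 36, members chosen without 1 array 19 to 31 and no mutant leaf arrays 3 gave 39. Fewer probe sets or members were counted for the stricter threshold and for single-gene probe sets, and another number of members (90 to 159) for those chosen without 1 array; for the other settings the cause was not tested. Over 885 values of 55 named results, 819 kept direction and call, 58 lost the call and 8 turned sign. These 8 values belong to 4 uncalled genes near 0 in roots on -Fe. AT5G07330 had 0.015 with array weights and ran from -0.082 to 0.107 over the fits without 1 array. AT3G02480 ran from -0.119 to 0.312, AT3G01175 from -0.048 to 0.244 and AT1G49450 from -0.039 to 0.309, the last at -0.037 without replicate 3 of every group. Leaving out mutant leaf arrays 3 or mutant root +Fe array 3 was chosen after seeing the data. Signal over background is not known for these centred values.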
